A study of Mus musculus with 6 samples.

Results

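The mRNA levels of 10 genes that define or regulate epithelial identity were compared between R/R and WT mouse lungs. The genes were chosen by name and not by a rule on their values, although earlier results of these lungs were known: Esrp1, Esrp2, Cdh1, Epcam and Grhl2 on the epithelial side, and Vim, Zeb1, Zeb2, Snai1 and Snai2 on the mesenchymal side. All 10 were found among the 56262 genes of the count table, and all 10 passed the filter on low counts, as did 17120 genes in all. R/R mice are homozygous for a CRISPR knock-in that replaces lysines 329 and 332 of RBM47 by arginine (K329R and K332R). WT mice were their littermates. Both groups were untreated C57BL/6 animals of 8 weeks, with 3 lungs in each, and RNA-seq was performed on the whole organ.

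RBM47 is an RNA-binding protein that is reported to help maintain the epithelial state, which is the reason to look at these genes in lungs where it is altered. In epithelial cells, E-cadherin and EpCAM join neighbouring cells, GRHL2 keeps junction genes active, and the splicing factors ESRP1 and ESRP2 set the epithelial form of many transcripts. In epithelial-mesenchymal transition (EMT), the zinc finger repressors SNAI1, SNAI2, ZEB1 and ZEB2 bind E-box sequences near epithelial genes and silence them, and vimentin filaments mark the mesenchymal side. In an intact lung most Vim, Zeb and Snai mRNA belongs to fibroblasts, endothelium, muscle and leukocytes rather than to cells in transition.

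Between 16501092 and 18141067 read pairs were counted on genes per lung, so that 1 read pair corresponded to 0.0552 to 0.0607 CPM (counts scaled to a common library size). The members stood well above that limit, from 162 read pairs for Snai2 in WT lung 1 to 17027 for Vim in R/R lung 1. The tissue label fitted its defining markers, with Sftpc of alveolar type 2 cells at 10010 to 13790 CPM and Ager of alveolar type 1 cells at 1545 to 1766 CPM. Rbm47 itself was measured at 32.7, 33.5 and 34.1 CPM in R/R lungs 1 to 3 and at 28.8, 30.5 and 34.4 CPM in WT lungs 1 to 3. These ranges overlapped (log2 fold change 0.10, adjusted p = 0.660), and counts per gene cannot show the substitutions themselves.

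None of the 10 genes differed between R/R and WT lungs at an adjusted p of 0.05 (edgeR quasi-likelihood test, adjusted over all genes tested). DESeq2 and limma-voom also called 0 of the 10. Over all 17120 genes tested, 300 were called, or 1.75%, with 111 higher and 189 lower in R/R lungs, and 65 (without WT lung 1) to 621 (without WT lung 3) were called when 1 lung was left out. At an unadjusted p of 0.05, 1 of the 10 passed, Epcam, against 14.2% of all genes. In 2 of the 10, Vim and Zeb2, the 3 R/R lungs did not overlap with the 3 WT lungs, against 18.7% of all genes. The fitted differences ran from a log2 fold change of -0.09 for Zeb2 to 0.22 for Epcam, and their median was 0.09, where the median of all genes was 0.00. The lung is a mixture of cell types, so that fewer cells of a type and less RNA per cell cannot be told apart in any of these values.

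**Figure D1:**
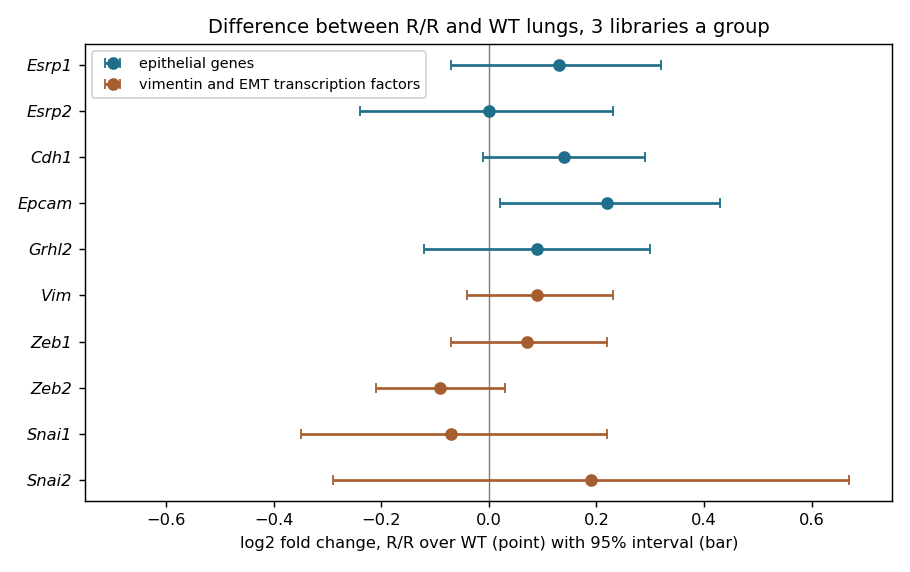
Log2 fold change of each of the 10 genes in R/R over WT lungs (horizontal axis; point, fitted value; bar, 95% interval; 3 lungs per group), with the epithelial genes in blue and the mesenchymal genes in brown. All intervals except that of Epcam, 0.02 to 0.43, include 0, and that of Snai2 is the widest.

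Cdh1 encodes E-cadherin, the adhesion molecule of adherens junctions. Its level was 370, 410 and 401 CPM in R/R lungs 1 to 3 and 331, 355 and 385 CPM in WT lungs 1 to 3. The highest WT lung lay above the lowest R/R lung. The mean was 394 ± 21.1 CPM in R/R and 357 ± 27.0 CPM in WT lungs (SD, n = 3), a difference of 10.3% with a 95% interval from -0.857% to 22.7% (adjusted p = 0.401).

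Epcam encodes a homophilic adhesion molecule found over most of the lung epithelium. R/R lungs 1 to 3 gave 54.8, 59.0 and 56.5 CPM, and WT lungs 1 to 3 gave 41.4, 48.6 and 55.8 CPM. The R/R lungs lay close together, whereas the WT lungs were spread from the lowest value of all 6 up into the R/R range. The fitted log2 fold change was 0.22 ± 0.09 (SE), or 16.7% with an interval from 1.14% to 34.7%. It missed the threshold at an adjusted p of 0.310, and the exact permutation test over lungs gave p = 0.2, where 0.1 is the smallest value that 3 lungs against 3 allow. The estimate depended on single WT lungs. Without WT lung 1 it was 0.12, and without WT lung 3 it was 0.33 with an adjusted p of 0.0558, the closest that any member came to the threshold under any alternative tried.

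The DNA upstream of Epcam is shown because the SNAI and ZEB proteins recognise the E-box CAGGTG, which reads CACCTG on the other strand. The set of RefSeq windows used (GRCm38.p6) gave the 250 bases before the start it lists for 4 of the 10 genes, Epcam, Vim, Snai1 and Zeb2. This set had no entry for Esrp1, Esrp2, Cdh1, Grhl2, Zeb1 and Snai2. The windows of Epcam (chr17:87635729-87635978, plus strand), Snai1 (chr2:167537945-167538194, plus strand) and Vim (chr2:13574061-13574310, plus strand) are printed 5′ to 3′ and end at the base before the start. Capitals mark either reading of the E-box.
Epcam: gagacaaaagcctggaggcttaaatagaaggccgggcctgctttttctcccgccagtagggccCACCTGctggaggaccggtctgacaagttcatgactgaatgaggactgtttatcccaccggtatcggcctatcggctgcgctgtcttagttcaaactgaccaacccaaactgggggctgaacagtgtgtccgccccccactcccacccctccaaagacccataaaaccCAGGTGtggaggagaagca
Snai1: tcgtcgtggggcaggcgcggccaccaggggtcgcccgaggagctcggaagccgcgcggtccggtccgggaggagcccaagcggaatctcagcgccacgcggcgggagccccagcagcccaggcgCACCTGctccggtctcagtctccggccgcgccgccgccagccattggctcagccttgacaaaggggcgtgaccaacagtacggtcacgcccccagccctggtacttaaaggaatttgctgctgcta
Vim: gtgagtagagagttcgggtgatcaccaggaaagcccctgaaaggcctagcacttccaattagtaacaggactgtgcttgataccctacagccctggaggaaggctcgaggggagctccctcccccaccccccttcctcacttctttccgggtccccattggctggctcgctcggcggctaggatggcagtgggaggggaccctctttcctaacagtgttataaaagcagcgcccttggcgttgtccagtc
The Epcam window held the 6 letters at 2 places, which begin 187 and 19 bases before the start. The Snai1 window held them once, from 126 bases before the start, and neither the Vim window nor any of the 4 Zeb2 windows held them. Of all 32851 windows of this length in the set, 17.2% held at least 1. These matches describe the sequence only, since binding was not measured. The listed starts are not always the outer end of the counted gene. The counted Vim gene begins at chr2:13573927, so its window lies inside it. The counted Zeb2 gene, on the minus strand, reaches to chr2:45117395. Of its windows, that at chr2:45117443-45117692 lies outside the gene and the others inside.

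Esrp1 and Esrp2 encode the epithelial splicing regulatory proteins. Esrp1 was measured at 30.9, 36.6 and 33.2 CPM in R/R lungs 1 to 3 and at 29.0, 29.5 and 33.7 CPM in WT lungs 1 to 3. The third WT lung stood among the R/R lungs, and the fitted difference was 9.24% (interval -4.70% to 25.2%, adjusted p = 0.588). Esrp2 was measured at 41.1, 49.0 and 56.1 CPM in R/R lungs and at 46.3, 46.4 and 53.8 CPM in WT lungs, in the same order. Both the lowest and the highest Esrp2 value came from R/R lungs. The group means, 48.7 ± 7.53 and 48.8 ± 4.30 CPM (SD, n = 3), lay closer than the spread of either group, with an interval for the difference from -15.0% to 17.0% (adjusted p = 0.995). Esrp2 shares 219 exon bases (5.05% of its length) with Nfatc3 on the opposite strand, and the counting did not use strand.

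Grhl2 encodes a transcription factor that activates Cdh1 and other junction genes. Its values were 26.4, 24.6 and 23.7 CPM in R/R lungs 1 to 3 and 21.7, 22.0 and 26.6 CPM in WT lungs 1 to 3. The highest value of all belonged to WT lung 3, and the other WT lungs were the lowest. The fitted difference was 6.26%, with an interval from -8.28% to 23.1% (adjusted p = 0.759).

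In the WT lungs the 5 epithelial genes deviated in the same direction. WT lungs 1 and 2 lay below the 6-lung mean of log2 CPM in 5 of the 5 genes, whereas WT lung 3 and R/R lung 2 lay below it in 0 of the 5. The median deviation of the 5 genes was -0.15, -0.11 and 0.09 on the log2 scale in WT lungs 1 to 3 and -0.02, 0.13 and 0.10 in R/R lungs 1 to 3. WT lung 3 thus lay beside R/R lungs 2 and 3, and R/R lung 1 lay between them and the other WT lungs. Markers of alveolar type 2 cells, the surfactant-producing epithelium, had higher fitted levels in R/R lungs. The summed level of their 8 markers was 24958 to 26344 CPM in R/R and 19686 to 24559 CPM in WT lungs, with 8 of 8 higher in R/R lungs, 4 of 8 at an unadjusted p of 0.05 and 0 of 8 called. All 8 were detected in every lung. The order of lungs differed from that of the 5 genes, with R/R lung 1 the highest at 26344 CPM. As single genes, 1 of the 8, Sftpc, did not overlap between genotypes, against 18.7% of all genes. Sftpc was also the largest part of the sum, at 12428 to 13790 CPM in R/R and 10010 to 12160 CPM in WT lungs. Club cell markers summed to 12128, 16050 and 15630 CPM in R/R lungs 1 to 3. In WT lungs 1 to 3 they summed to 10896, 10057 and 14960 CPM. Ciliated cell markers gave 384, 440 and 414 CPM in R/R lungs and 355, 366 and 490 CPM in WT lungs. Alveolar type 1 markers had their lowest sum in R/R lung 3, at 4415 CPM. The part of these cell types in the epithelial values was not tested.

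**Figure D2:**
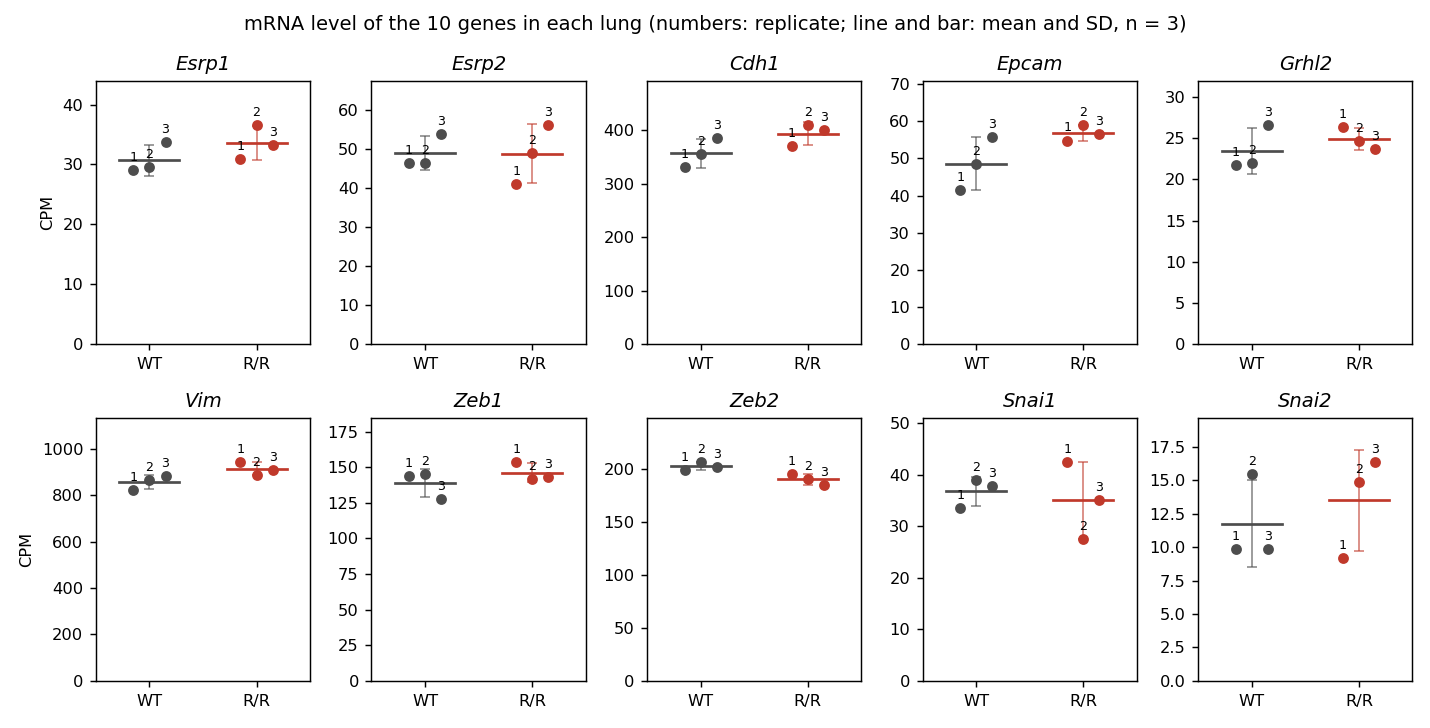
CPM of each gene in every lung (vertical axis from 0; points numbered by replicate; horizontal line and bar, mean and SD of 3 lungs; grey, WT; red, R/R). WT lung 3 falls inside the R/R range, or above it, for Esrp1, Esrp2, Cdh1, Epcam and Grhl2, while Vim and Zeb2 are separated without overlap.

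Vim encodes the intermediate filament of mesenchymal, endothelial and haematopoietic cells and was the most abundant of the 10 genes per exon length. It reached 945, 888 and 909 CPM in R/R lungs 1 to 3 and 821, 866 and 881 CPM in WT lungs 1 to 3. Every R/R lung exceeded every WT lung, although the nearest pair, 888 and 881 CPM, differed by less than the SD within either group (28.8 and 31.2 CPM, n = 3). The fitted difference was 6.78%, with an interval from -2.96% to 17.5% (adjusted p = 0.558, exact permutation p = 0.1).

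Zeb1 and Zeb2 encode paired zinc finger repressors of epithelial genes, and both are also made by stromal cells and leukocytes. Zeb1 was measured at 154, 142 and 143 CPM in R/R lungs 1 to 3 and at 144, 145 and 128 CPM in WT lungs 1 to 3. The groups overlapped, with WT lung 3 the lowest and R/R lung 1 the highest, and the interval for the difference ran from -4.76% to 16.1% (adjusted p = 0.688). For Zeb2, R/R lungs 1 to 3 gave 195, 191 and 185 CPM and WT lungs 1 to 3 gave 199, 207 and 202 CPM. Each R/R lung lay below each WT lung. The difference was small, -6.07% with an interval from -13.5% to 1.97% (adjusted p = 0.506, exact permutation p = 0.1). Zeb2 had the tightest replicates of the 10 genes, with coefficients of variation of 2.69% in R/R and 2.03% in WT lungs. The antisense gene Zeb2os shares 653 exon bases (3.23%) with Zeb2 but had only 8, 13 and 13 read pairs in R/R and 18, 19 and 19 in WT lungs.

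Leukocytes express Zeb2, and their markers were also lower in R/R lungs. The summed level of 10 leukocyte markers was 393 to 435 CPM in R/R and 461 to 543 CPM in WT lungs, without overlap, with 9 of 10 lower and 6 of 10 at an unadjusted p of 0.05. Of the 10, 3 were called, all lower, against 1.75% of all genes called. They included Ms4a1 and Cd79a, genes of B cells, with log2 fold changes of -0.99 and -0.67 (adjusted p = 0.00675 and 0.0491). The sum pools several kinds of leukocyte, and which of them hold the Zeb2 mRNA was not measured. Among markers of other cell types, 5 of 8 endothelial, 4 of 6 fibroblast and 6 of 7 smooth muscle and pericyte genes were also lower in R/R lungs. The part of leukocytes or of these other cell types in the Zeb2 values was not tested.

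Snai1 and Snai2 encode the Snail and Slug repressors, which are induced early in EMT. Snai1 values were 42.6, 27.6 and 35.1 CPM in R/R lungs 1 to 3 and 33.6, 39.0 and 37.8 CPM in WT lungs 1 to 3. The R/R lungs held both extremes, with a coefficient of variation of 21.4% against 7.66% in WT lungs, and the fitted difference of -4.59% had an interval from -21.6% to 16.1% (adjusted p = 0.874). Snai2 was at 9.21, 14.9 and 16.4 CPM in R/R and at 9.84, 15.5 and 9.89 CPM in WT lungs. Both genotypes held lungs near 10 CPM and lungs near 15 CPM. The coefficient of variation was 28% in R/R and 27.7% in WT lungs, and the interval for the difference, from -18.1% to 59.6%, was the widest of the 10.

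Levels of different genes were compared per exon length, as RPKM (CPM divided by the exon length in kilobases). Averaged over the 6 lungs, Vim had 187 RPKM and Cdh1 82.0 RPKM, above 99.2% and 97.5% of all tested genes. They were followed by Epcam at 24.0, Snai1 at 22.2, Zeb1 at 13.9, Esrp2 at 11.2, Zeb2 at 9.74, Snai2 at 6.24, Esrp1 at 5.10 and Grhl2 at 2.81 RPKM. This order holds for the exon length of the count table, which joins the exons of all transcripts. The lungs of Vim, of Cdh1 and of Grhl2 did not overlap with those of any neighbour in it. Epcam and Snai1, Zeb1 and Esrp2, Esrp2 and Zeb2, and Snai2 and Esrp1 were neighbours whose ranges over the 6 lungs overlapped. With the length of the longest transcript instead, Vim, Cdh1 and Epcam stayed highest at 302, 84.7 and 25.8 RPKM and Grhl2 lowest at 4.89 RPKM, but the middle of the order changed. Zeb1 (24.6 RPKM) then preceded Snai1 (22.2 RPKM), Zeb2 (21.6 RPKM) preceded Esrp2 (13.8 RPKM), and Esrp1 (8.32 RPKM) preceded Snai2 (6.24 RPKM), whose range now overlapped with that of Grhl2.

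**Figure D3:**
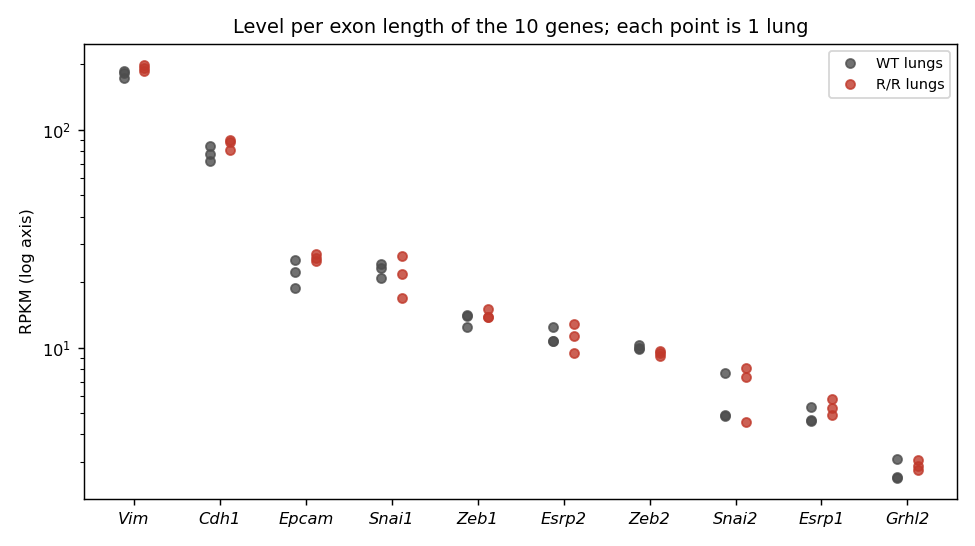
RPKM of the 10 genes (logarithmic vertical axis) in order of their mean over all lungs, with each lung as a point (grey, WT; red, R/R). The genes span from 187 RPKM for Vim to 2.81 RPKM for Grhl2, and several neighbours, such as Epcam at 24.0 and Snai1 at 22.2 RPKM, overlap in their lungs.

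Ratios of RPKM within a lung compare members independently of the total count and are given as descriptions. Another gene length shifts a ratio by the same factor in every lung. Zeb1 to Zeb2 was 1.56, 1.46 and 1.52 in R/R lungs 1 to 3 and 1.42, 1.38 and 1.25 in WT lungs 1 to 3. It was the only one of the 7 ratios computed in which the genotypes did not overlap, with means of 1.51 ± 0.0482 and 1.35 ± 0.0882 (SD, n = 3). For comparison, 18.7% of all single genes did not overlap between genotypes. Esrp1 to Esrp2 was 0.517, 0.515 and 0.407 in R/R lungs and 0.430, 0.438 and 0.431 in WT lungs. The WT lungs agreed closely, whereas R/R lung 3 lay below them and the other R/R lungs above. Cdh1 to Vim, a simple contrast of an epithelial with a mesenchymal gene, was 0.406, 0.479 and 0.457 in R/R lungs and 0.418, 0.425 and 0.453 in WT lungs, so that the WT lungs lay inside the R/R range. Cdh1 to Epcam averaged 3.33 ± 0.0830 in R/R and 3.55 ± 0.267 in WT lungs. Esrp1 to Epcam averaged 0.206 ± 0.0101 and 0.222 ± 0.0191, and Grhl2 to Epcam 0.112 ± 0.00934 and 0.124 ± 0.00944. In each of these 3 ratios among epithelial genes the genotypes overlapped. Snai1 to Snai2 varied from 2.31 to 5.77 among R/R lungs alone.

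**Figure D4:**
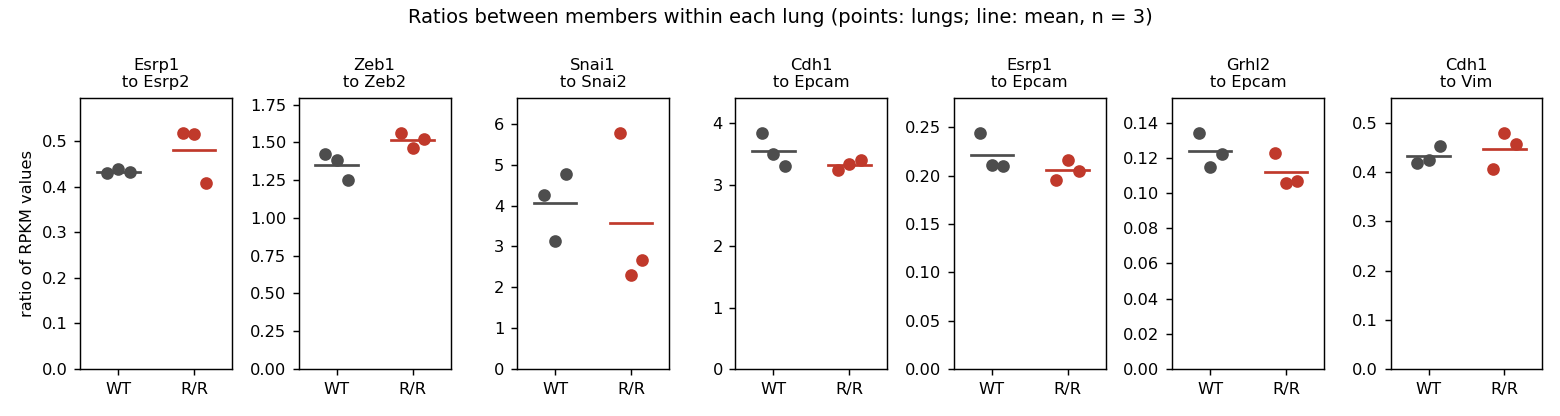
Ratios of RPKM values between pairs of members within each lung (vertical axes from 0; points, lungs; line, mean of 3; grey, WT; red, R/R). Only Zeb1 to Zeb2 is separated, at 1.46 to 1.56 in R/R and 1.25 to 1.42 in WT lungs, while the other 6 overlap.

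Other genes of the same programmes were examined in 7 lists of 157 genes, of which 153 were tested. Of these, 8 were called (5.23%, against 1.75% of all genes), 2 higher and 6 lower in R/R lungs, and the median log2 fold change was 0.00. All 8 calls were lost without R/R lung 2 and also without WT lung 1, when 0 of the listed genes passed, and each of the 8 was called in only 1 or 2 of the 6 fits that left out a lung. Their directions held under all 14 alternatives. In each of the 8 the R/R and WT lungs did not overlap, so leaving out a lung could not have reversed the direction.

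Of 39 genes of epithelial junctions, polarity and keratins, 28 were higher and 11 lower in R/R lungs (median log2 fold change 0.07). At an unadjusted p of 0.05, 9 of the 39 passed, against 14.2% of all genes, and all of these but Jup were higher in R/R lungs. Between genotypes 9 of the 39 did not overlap, against 18.7% of all genes. At the adjusted threshold 1 was called. It was Spint1, an inhibitor of epithelial surface proteases, which rose from 45.4, 48.5 and 47.8 CPM in WT to 57.7, 60.3 and 65.0 CPM in R/R lungs (log2 fold change 0.37 ± 0.07 SE, adjusted p = 0.0248). The list's members with the highest RPKM, Ctnnb1, Cldn18 and Mal2, had log2 fold changes of -0.06, 0.10 and 0.01. Ctnnb1 encodes the β-catenin that binds the E-cadherin tail, and Cldn18 the claudin of alveolar tight junctions.

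Of 21 transcription factors on the epithelial side besides Grhl2, 14 were higher and 7 lower (median 0.09), and edgeR called 0, with 3 at an unadjusted p of 0.05. Hopx of alveolar type 1 cells, Nkx2-1, the lung lineage factor, and Cebpa had the highest RPKM, with log2 fold changes of 0.32, 0.13 and 0.13 (adjusted p = 0.0773, 0.400 and 0.451). On the EMT side, 15 of 18 further factors were tested, 7 higher and 8 lower (median -0.04), and 1 was called. Sox4, an SRY-box factor linked to TGF-β responses and also expressed in progenitor and lymphoid cells, fell from 202, 236 and 168 CPM in WT to 149, 131 and 137 CPM in R/R lungs (log2 fold change -0.54 ± 0.10 SE, adjusted p = 0.0313). Id3 and Id1, inhibitors of basic helix-loop-helix factors, had log2 fold changes of 0.17 and 0.06.

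Mesenchymal genes other than Vim were mostly lower in R/R lungs. Of 24, 19 were lower and 5 higher (median -0.22), 13 had an unadjusted p under 0.05, and 4 fell at the adjusted threshold, or 16.7% of the list. Sparc, a collagen-binding matrix protein, was at 2457, 2247 and 2014 CPM in R/R and 3087, 3666 and 2907 CPM in WT lungs (log2 fold change -0.52, adjusted p = 0.0319). Fbn1, the microfibril protein fibrillin, was at 284, 234 and 261 against 323, 380 and 342 CPM (log2 fold change -0.43, adjusted p = 0.0308). Pdgfrb, the receptor that marks pericytes, and Mmp14, a membrane-bound collagenase, had log2 fold changes of -0.37 and -0.34 (adjusted p = 0.0268 and 0.0432). In these 4, picked as the called genes, every R/R lung lay below every WT lung. Of the 24 genes, 10 did not overlap between genotypes, against 18.7% of all genes. The abundant collagen genes Col3a1 and Col1a1 overlapped between genotypes, with log2 fold changes of -0.26 and -0.21 (adjusted p = 0.237 and 0.453). Vim, at 0.09 with an interval from -0.04 to 0.23, did not share the sign of the list's median. The list was drawn up with earlier results of these lungs known, so its count is not independent evidence of the direction.

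Markers of contractile cells were measured beside the mesenchymal genes. The 7 smooth muscle and pericyte markers summed to 779 to 862 CPM in R/R and 924 to 1053 CPM in WT lungs. Of the 7, 6 were lower, 3 had an unadjusted p under 0.05 and 1 was called, Pdgfrb. Of the 7, 3 (Pdgfrb, Acta2 and Tagln) are also in the mesenchymal list. The separation of the sums rested on Pdgfrb, since without it the sums overlapped, at 477 to 573 CPM in R/R and 526 to 698 CPM in WT lungs. As single genes, 3 of the 7 did not overlap between genotypes, against 18.7% of all genes. Besides Pdgfrb these were Des and Cspg4, with log2 fold changes of -0.25 and -0.35, which missed the threshold (adjusted p = 0.0668 and 0.0929, edgeR). The 4 markers found only in the contractile list overlapped as well, at 340 to 398 and 378 to 470 CPM. The 6 fibroblast markers overlapped, at 2707 to 3351 and 2978 to 3295 CPM, with 4 of 6 lower and 0 called by edgeR, and 0 at an unadjusted p of 0.05. The part of cell composition in these values was not tested.

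**Figure D5:**
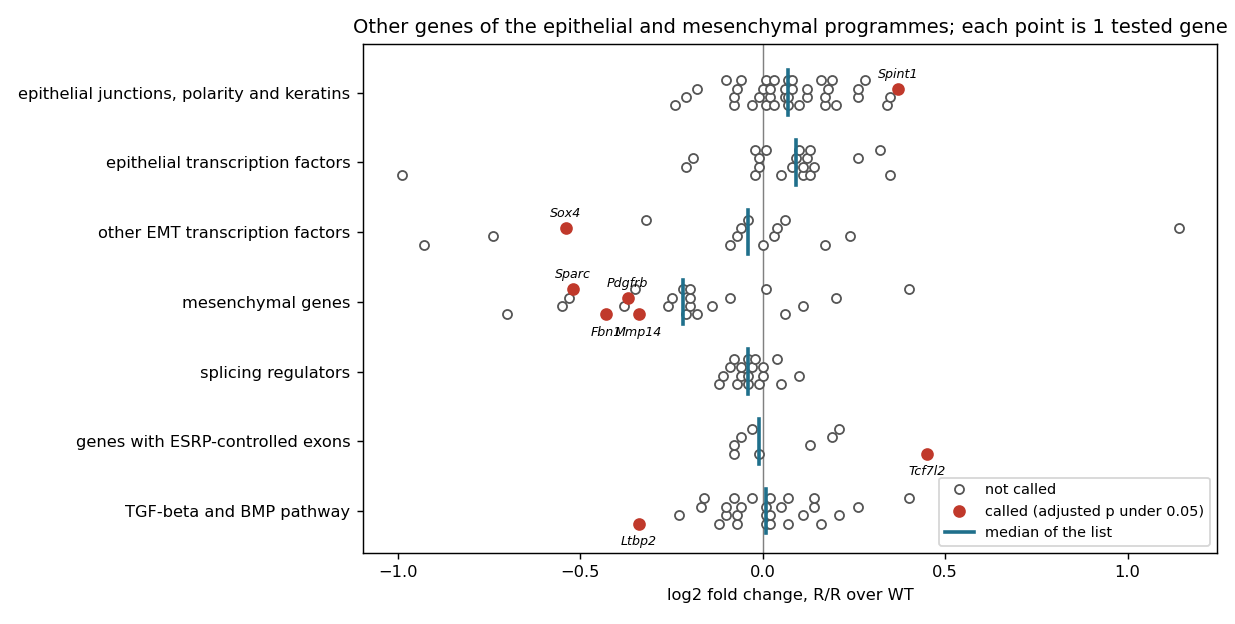
Log2 fold change in R/R over WT lungs (horizontal axis) of each tested gene in 7 lists of epithelial and mesenchymal genes; filled red points are genes called at an adjusted p of 0.05, open points are not called, and the vertical blue line is the list's median. The mesenchymal genes lie mostly left of 0 with a median of -0.22 and 4 called genes, while the other 6 medians lie between -0.04 and 0.09.

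Genes whose exons ESRP1 and ESRP2 are known to control were compared as whole genes, since the table does not resolve exons or isoforms. Of 9, 4 were higher and 5 lower (median -0.01). The Wnt effector Tcf7l2 was called and rose from 20.6, 23.7 and 20 CPM in WT to 27.7, 29.0 and 31.1 CPM in R/R lungs (log2 fold change 0.45 ± 0.09 SE, adjusted p = 0.0348). Cd44, the hyaluronan receptor, and Fgfr2, whose epithelial isoform receives signals from the stroma, had log2 fold changes of 0.13 and 0.19, and the kinase gene Slk had -0.08, with adjusted p of 0.384, 0.330 and 0.582. Of 18 tested splicing regulators, Rbm47 included, 4 were higher and 14 lower (median -0.04). None was called by edgeR, and 0 had an unadjusted p under 0.05. The most abundant per length were Hnrnph1, Hnrnpf and Ptbp1, at log2 fold changes of -0.03, -0.06 and -0.06. Splicing itself was not measured here.

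The TGF-β and BMP pathway, which induces Snai and Zeb genes during EMT, was represented by 28 genes, 16 higher and 12 lower (median 0.01). The 1 called gene was Ltbp2, a microfibril-bound member of the latent TGF-β binding protein family, which fell from 281, 326 and 274 CPM in WT to 236, 228 and 234 CPM in R/R lungs (log2 fold change -0.34 ± 0.07 SE, adjusted p = 0.0402). The endothelial receptors Eng and Acvrl1 and the binding protein Ltbp4 had the highest RPKM and log2 fold changes of 0.01, -0.06 and 0.14, with no call.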

How the data were processed

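RNA from the lungs of 3 R/R and 3 WT mice was sequenced as paired reads of 150 bases. Alignment by the authors used HISAT2 2.1.0 and mm10 (GRCm38), and the deposited values are raw counts of read pairs on GENCODE M25, unstranded and not normalized. The file header gives featureCounts 2.0.1, and the supplement names another version. One column is recorded as an expected count because the deposited table's comment line was misread by a unit check; it holds whole raw counts. The submitters' notes name DESeq2, and the supplement names edgeR. Symbols were matched for 55141 of 56262 identifiers (GENCODE M21).

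Counts were filtered with filterByExpr (minimum count 10, minimum total 15), scaled by TMM and compared with edgeR 4.0.16 (glmQLFit, glmQLFTest) and Benjamini-Hochberg adjustment over 17120 genes in R 4.3.3. A gene was called at an adjusted p of 0.05. RPKM used the table's exon length. Each member was tested again by an exact permutation test over lungs, two-sided, on log2 CPM with a prior count of 0.5. Alternatives used DESeq2 1.42.0, limma-voom (limma 3.58.1), other scalings and filters, a replicate block and each library left out. The tests were checked on simulated counts.

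The 10 members, 7 lists of related genes and 14 lists of cell type markers were chosen with earlier results of these data known. All members were named, and from each list of related genes the called genes and the 3 with the highest RPKM, with cell type markers where their sums moved with a member. Jup was also named, for its direction. The supplement describes 3 biological replicates per group; p-values measure the spread between these animals.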

Additional observations from a re-analysis of the deposited data

How the results depend on the processing

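Of the 10 members, 0 were called under each of the 14 alternatives, and 0 to 2 had an unadjusted p under 0.05. Of 140 member values, 136 kept their direction and 4 reversed, all of genes near 0. Esrp2 was 0.00 with every gene of at least 1 count, 0.10 without R/R replicate 1 and 0.07 without WT replicate 3, and Snai1 was 0.08 without R/R replicate 2. Over the libraries left out in turn, Esrp2 ranged from -0.12 to 0.10 and Snai1 from -0.23 to 0.08. Over all genes, DESeq2 called 541 and the test of every gene with at least 1 count called 1109. Leaving out a library gave 65 (without WT replicate 1) to 621 (without WT replicate 3), and 76, 110, 117 and 180 without R/R 2, WT 2, R/R 3 and R/R 1. Of the genes in the 7 lists, DESeq2 called 15, the test of every gene with at least 1 count 27, and leaving out a library 0 to 13. The causes of these changes in number were not tested. With the replicate number as a block, 446 genes, 14 listed genes and 0 members were called. Same-numbered R/R and WT lungs did not deviate together (r = -0.01, -0.00 and -0.01 across genes, which are not independent). With 3 lungs per group, these values cannot exclude that the numbers pair the animals. With the length of the longest transcript, Cdh1 to Vim was 0.285 in R/R and 0.275 in WT lungs, Grhl2 to Epcam 0.181 and 0.200, Esrp1 to Epcam 0.312 and 0.336, Esrp1 to Esrp2 0.638 and 0.576, Zeb1 to Zeb2 1.21 and 1.08, and Cdh1 to Epcam 3.19 and 3.41. The levels with that length and the contractile sums without shared genes were chosen after seeing the data. With 3 lungs per group, the differences of Epcam and Snai2 could not be told from the spread.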

Other observations

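Mesothelial cells, the keratin-rich epithelium of the pleura, had the highest median log2 fold change of the cell type lists with tested genes, 0.79. Lrrn4 was called, at 18.5, 19.7 and 14.7 CPM in R/R and 7.41, 8.11 and 10.8 CPM in WT lungs 1 to 3 (log2 fold change 1.01, adjusted p = 0.0124, edgeR). Msln and Upk3b had log2 fold changes of 0.76 and 0.83 and missed the threshold (adjusted p = 0.125 and 0.0995), with R/R lung 3 inside the WT range for both. The 4 mesothelial markers, 4 of 4 higher, summed to 91.9 to 163 CPM in R/R and 61.5 to 101 CPM in WT lungs. The part of this cell type in the values of Cdh1, Epcam or Vim was not tested.

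Among alveolar type 1 markers, the water channel gene Aqp5 was called, at 317, 314 and 334 CPM in R/R and 253, 271 and 276 CPM in WT lungs (log2 fold change 0.27, adjusted p = 0.0459, edgeR), whereas the sum of the 7 markers overlapped at 4415 to 4921 and 4610 to 4767 CPM. Whether the calls of cell type markers, such as Aqp5, Lrrn4, Ms4a1 and Cd79a, hold without single lungs was not examined. No club, ciliated or endothelial marker was called by edgeR. Club cell markers summed to 12128 to 16050 CPM in R/R and 10057 to 14960 CPM in WT lungs, ciliated markers to 384 to 440 and 355 to 490 CPM, and endothelial markers to 5802 to 5901 and 5686 to 6284 CPM. At an unadjusted p of 0.05 these lists had 0, 0 and 1 genes. Basal cell markers were near absent, with sums of 0.837 to 1.5 and 1.21 to 1.41 CPM. Cardiac muscle markers overlapped at 55.5 to 104 and 76.6 to 213 CPM, with 0 called and 2 at an unadjusted p of 0.05. Skeletal muscle (0.388 to 1.47 and 0.234 to 2.15 CPM), thymus (0.222 to 0.418 and 0.234 to 0.972 CPM) and squamous epithelium (0.120 to 0.530 and 0.0607 to 0.410 CPM) were near the limit of counting, which is 0.182 CPM for 3 counts in the smallest library.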
